A study of Mus musculus with 12 samples.

Results

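The Kruppel-like factors examined here were Klf2, Klf3, Klf4, Klf6, Klf7, Klf9, Klf10, Klf12 and Klf13, 9 of the 18193 genes that the array annotation names. They were measured by every probe set that carried one of these names as its single gene symbol, which gave 35 of the 45037 probe sets tested. A probe set is a group of short probes that reads out 1 transcript region. RNA from 12 mouse spleen T cell samples, 1 array each, was compared in 4 groups. The CD8+ NKT-like group held 5 cultures, the CD8+ cells that the labels describe as expanded with suppression function. The cultured CD4+ group held 3 cultures of sorted CD4+ cells with less suppression, grown in the same way with beads coated with anti-CD3 and anti-CD28 and high dose IL-2. The activated CD8+ group held 2 samples of CD8+ cells stimulated with the soluble antibodies at low dose, without beads. The naive CD8+ group held 2 samples of freshly isolated CD8+ cells, enriched by removing other cells rather than sorted. All groups came from female C57BL/6 mice whose age the labels give as 8 to 12 weeks, with no genetic change and no pooling stated. The cultures were described as independent, but nothing says the same of the naive and activated pairs, so the tests there measure the spread between those samples, which may be technical. There were no naive CD4+ samples to set beside the cultured CD4+ ones, so lineage and culture cannot be told apart in their comparison with naive CD8+ cells. The cultures and the activated samples were stimulated by different protocols, and the paper gives no stimulation time or IL-2 dose for the activated ones. Form of stimulation, time and IL-2 therefore cannot be told apart in comparisons between them, nor can lineage for the CD4+ cultures.

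Kruppel-like factors are DNA-binding proteins with zinc fingers at one end that recognise GC-rich and CACCC sequences. Some activate and some repress transcription, the repressors by recruiting the CtBP or Sin3 and histone deacetylase complexes. In T cells KLF2 is best known for keeping resting cells quiescent and for driving the receptors that let them leave and re-enter lymphoid organs. Its transcription is known to depend on FOXO1 and on MEF2 factors activated by the kinase ERK5. Signalling through the T cell receptor and cytokines is known to switch it off.

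The promoters of Klf2 and Klf3 are shown because these genes carried the largest falls. Promoter sequences, taken from RefSeq on GRCm38.p6, span 250 bases before to 50 bases after the start and were matched for 8 of the 9 genes, all but Klf10. In the Klf2 promoter, at chr8:72318812-72319111 on the plus strand, capitals mark the match to CTANNNNTAG, the pattern of MEF2 sites, which begins 118 bases before the start. In the Klf3 promoter, at chr5:64803271-64803570 on the plus strand, capitals mark CACCC or its reverse complement GGGTG.
Klf2: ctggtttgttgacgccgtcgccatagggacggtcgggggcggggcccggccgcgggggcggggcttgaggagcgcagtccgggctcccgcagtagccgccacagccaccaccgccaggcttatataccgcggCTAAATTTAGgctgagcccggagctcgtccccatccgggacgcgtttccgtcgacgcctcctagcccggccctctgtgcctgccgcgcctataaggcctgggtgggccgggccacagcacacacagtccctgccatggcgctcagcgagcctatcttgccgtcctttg
Klf3: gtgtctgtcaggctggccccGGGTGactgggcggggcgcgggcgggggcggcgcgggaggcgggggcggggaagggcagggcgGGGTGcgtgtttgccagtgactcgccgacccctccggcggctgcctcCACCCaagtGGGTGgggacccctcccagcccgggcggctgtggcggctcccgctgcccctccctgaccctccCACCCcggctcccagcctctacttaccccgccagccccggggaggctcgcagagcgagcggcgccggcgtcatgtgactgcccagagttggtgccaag
On both strands, CTANNNNTAG occurred in 1 of the 8 promoters, that of Klf2, and in 3.69% of 32851 mouse promoters of the same length. CACCC, the core of the element to which these factors bind, occurred 5 times in the Klf3 promoter and at least once in 6 of the 8, against 57.5% of all promoters, whose median was 1 match. GGGCGG, the GC box, occurred in 6 of the 8 and in 35.7% of all. GTAAACA, a forkhead pattern, occurred in 1 of the 8, that of Klf9, and in 3.65% of all. Neither GGGCGG nor CACCC contains the other, though neighbouring matches can share bases, and none of these matches is a measured binding site.

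All values are log2 signals after RMA, a method that corrects background, equalises the arrays and summarises each probe set, and each gene is represented by its brightest probe set unless stated. Genes of other tissues, 11 of 12 measured, gave a range from 3.79 to 7.93 with a median of 6.86, which served as the level of unexpressed genes. A ratio near that level depends on the array background. A difference was called at a q-value, the share of false calls expected at that point of the list, of 0.01 or less in a limma fit over all probe sets. Array medians ran from 6.23 to 6.42, and cultured CD4+ replicate 1 stood apart from replicates 2 and 3 of its group, with a mean absolute difference of 0.297 and 0.303, against 0.151 between those 2. The activated CD8+ pair differed by 0.387, more than any other pair within a group. Its replicate 2 lay nearer to cultured CD4+ replicate 1, at 0.361. Of 6 T cell markers, Cd4 and Cd8a among them, 4 lay above the other-tissue range in cultured CD4+ samples and 5 in each of the other groups. The naive samples also carried more RNA of other cells. The log2 of the summed signal of 8 B cell markers was 9.54 to 10.30 in NKT-like, 9.56 to 10.02 in cultured CD4+, 10.81 to 11.26 in activated CD8+ and 12.97 to 13.67 in naive CD8+ samples. That of 7 red cell markers was 9.10 to 9.28 in NKT-like, 9.12 to 9.36 in cultured CD4+, 9.32 to 9.60 in activated CD8+ and 12.10 to 12.37 in naive CD8+ samples. In the same measure, myeloid markers, 9 genes, spanned 9.36 to 10.10 and platelet markers, 4 genes, 8.70 to 8.95 over all samples. Such sums follow their brightest genes. In naive samples 3 of the 8 B cell and 3 of the 7 red cell markers had means above the other-tissue range. The B cell gene Ighm alone read 13.48 and 12.76 there. The defining B cell factor Pax5 had mean levels of 6.41 in NKT-like and 6.42 in naive cells, at the other-tissue level, as did the red cell enzyme gene Alas2 with 5.47 in both, while the B cell surface gene Ms4a1 averaged 5.97 in NKT-like cultures and 8.47 in naive samples. The part of these cells in the comparisons with naive cells was not tested.

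Against naive CD8+ cells, Klf2, Klf3 and Klf13 fell in NKT-like cells and Klf6 and Klf9 rose, while Klf4, Klf7, Klf10 and Klf12 passed in neither direction. Of the 9 genes, 2 were called higher and 3 lower, against 11% and 6.61% of all genes. In cultured CD4+ cells 0 were higher and 2 lower, Klf2 and Klf3, against 11.6% and 5.58% of all genes. In activated CD8+ cells 0 were higher and the same 2 were lower, against 4.35% and 2.68% of all genes. At an unadjusted p under 0.05 limma gave 3 genes higher and 3 lower for NKT-like cells, against 20.3% and 18.4% of all genes. It gave 2 higher and 3 lower for the CD4+ cultures, against 20.8% and 17.5%, and 1 higher and 3 lower for activated CD8+ cells, against 14.4% and 12.4%. All 3 comparisons used the same 2 naive samples, so they are not independent of each other. The median log2 difference of the 9 genes was -0.15 for NKT-like, 0.01 for cultured CD4+ and 0.04 for activated CD8+ cells, against -0.05 over all genes in each.

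**Figure D1:**
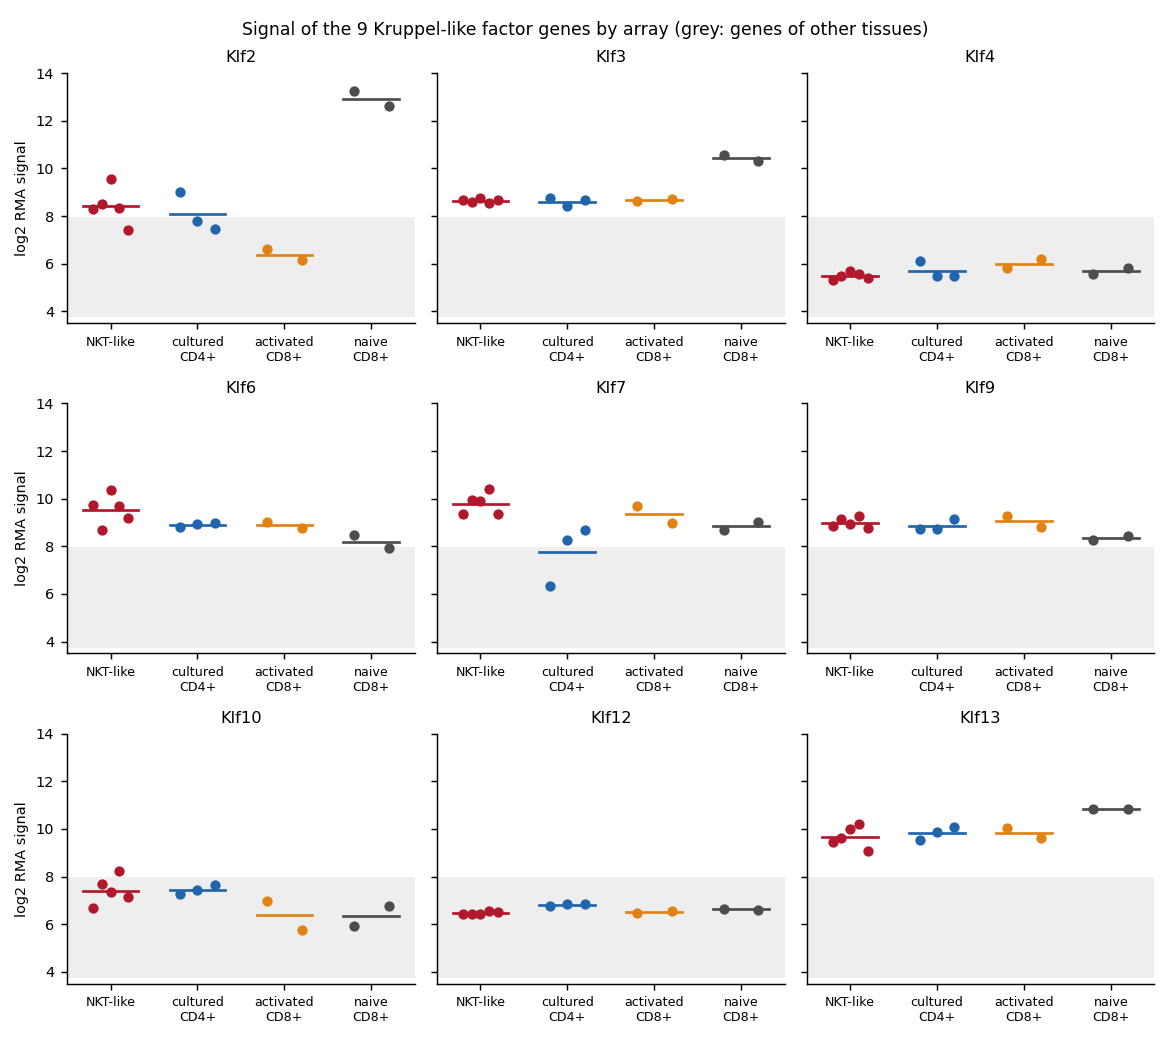
Log2 RMA signal of the representative probe set of each of the 9 genes (vertical axis) in every array, by group (5 NKT-like, 3 cultured CD4+, 2 activated CD8+, 2 naive CD8+), with a line at each group mean and the range of other-tissue genes, 3.79 to 7.93, in grey. Klf2, Klf3 and Klf13 are highest in the naive arrays, Klf7 has its lowest mean in cultured CD4+ arrays, and Klf4 and Klf12 lie within the grey range in every array.

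Klf2, the quiescence and trafficking factor, showed the largest fall of the 9 representative probe sets in each comparison with naive cells. Its single probe set, 1448890_at, read 8.31, 8.52, 9.57, 8.36 and 7.41 in the NKT-like cultures. It read 9.03, 7.79 and 7.45 in the cultured CD4+ samples, 6.60 and 6.14 in the activated CD8+ samples, and 13.24 and 12.61 in the naive CD8+ samples. Every cultured or activated sample lay below both naive samples, and NKT-like replicate 5, cultured CD4+ replicates 2 and 3 and the activated pair lay within the other-tissue range. The fall was 22.5-fold in NKT-like cells (log2 difference -4.49 ± 0.51 SE, q = 7.7e-05). The log2 differences were -4.84 ± 0.56 in the CD4+ cultures (q = 9.3e-05) and -6.56 ± 0.61 in activated CD8+ samples (q = 8.5e-05), where no fold is given because most or all of the signals were at that level. Each fall passed when any one of the 12 arrays was left out. As the samples were bulk RNA, fewer cells that express a gene and less RNA per cell cannot be told apart.

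Among the 3 stimulated groups, all 5 NKT-like cultures had more Klf2 signal than both activated CD8+ samples, by 2.06 ± 0.51 on the log2 scale, but the difference missed the threshold at q = 0.023. The cultured CD4+ samples also lay above the activated pair (1.72, q = 0.11). NKT-like and cultured CD4+ samples overlapped, with a difference of 0.34 (95% interval -0.64 to 1.33, q = 0.75) that ran from 0.02 to 0.81 with single arrays left out. In order of mean level, naive CD8+ stood above NKT-like, cultured CD4+ and activated CD8+ cells, and only the step below naive cells passed.

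Klf3, a repressor that recruits CtBP, fell in all 3 stimulated groups. The representative probe set 1431630_a_at read 8.66, 8.58, 8.75, 8.54 and 8.66 in NKT-like cultures, and 8.74, 8.42 and 8.66 in cultured CD4+ samples. It read 8.62 and 8.71 in activated CD8+ samples and 10.58 and 10.32 in naive CD8+ samples. No stimulated sample reached either naive sample, and the stimulated groups overlapped one another at this probe set, above the other-tissue range. The falls at this probe set were 3.52-fold in NKT-like cells (-1.81 ± 0.12, q = 1.4e-06), 3.59-fold in the CD4+ cultures (-1.84 ± 0.13, q = 2.4e-06) and 3.44-fold in activated CD8+ cells (-1.78 ± 0.14, q = 2.1e-05). Left-out arrays changed none of these calls.

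The 7 Klf3 probe sets differed in signal as well as in their log2 differences. These ran from -0.63 to -6.36 in NKT-like cells, so no single size of fall holds for the gene. All 7 were lower in both kinds of culture, and 6 of the 7 were lower in activated CD8+ cells. Over the 9 genes, 10 of the 35 probe sets were lower in NKT-like cells, against 8.52% of all probe sets, 8 in the CD4+ cultures, against 7.31%, and 7 in activated CD8+ cells, against 2.6%. Klf3 alone gave 7 of these 10, 7 of these 8 and 6 of these 7. Probe sets of 1 gene are not independent, so these counts show no excess across the 9 genes. Probe set 1454666_at read 4.71, 4.84, 4.91, 4.93 and 4.72 in NKT-like, 4.91, 5.07 and 5.13 in cultured CD4+, 6.88 and 5.74 in activated CD8+ and 11.26 and 11.11 in naive CD8+ samples. Here the activated pair lay above every culture, and the NKT-like and cultured CD4+ samples overlapped. The log2 differences from naive cells were -6.36 ± 0.23 in NKT-like (q = 1.4e-08), -6.14 ± 0.25 in cultured CD4+ (q = 4.5e-08) and -4.87 ± 0.27 in activated CD8+ cells (q = 1.8e-06). At this probe set, 1421604_a_at and 1429360_at only the naive pair exceeded the other-tissue range and every stimulated sample lay within it, so their differences carry array background and are not given as folds. At 1458487_at and 1442920_at all samples lay within that range. Of the 7, 2 were above it in every sample, the representative and 1441200_at, which fell 1.55-fold in NKT-like cells. The exception in activated CD8+ cells was 1441200_at (-0.66, q = 0.019), with 8.15 and 8.48 in activated and 9.13 and 8.83 in naive samples.

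**Figure D2:**
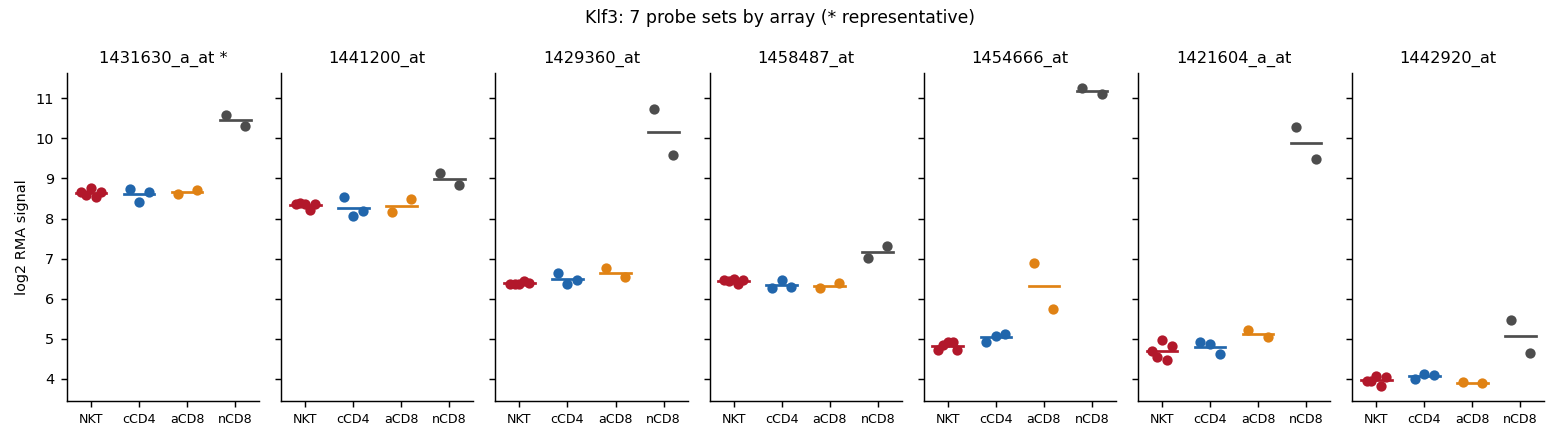
Log2 RMA signal (vertical axis) of the 7 Klf3 probe sets in every array of NKT-like (NKT), cultured CD4+ (cCD4), activated CD8+ (aCD8) and naive CD8+ (nCD8) samples, with lines at group means. The naive arrays are highest in each panel, and the gap is widest at 1454666_at, where the activated pair at 6.88 and 5.74 lies between the cultures and the naive pair and all stimulated arrays lie within the other-tissue range, 3.79 to 7.93.

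Klf13, known in human T cells as a factor that drives the chemokine CCL5 late after activation, was lower in NKT-like cells. Probe set 1436316_at read 9.44, 9.61, 10.01, 10.21 and 9.08 in NKT-like, 9.51, 9.88 and 10.10 in cultured CD4+, 10.05 and 9.61 in activated CD8+ and 10.83 and 10.85 in naive CD8+ samples. All 10 stimulated samples lay below the naive pair. The fall was 2.25-fold in NKT-like cells (-1.17 ± 0.27, q = 0.0047). In cultured CD4+ and activated CD8+ cells the differences of -1.01 (q = 0.014) and -1.01 (q = 0.047) missed the threshold, and a direct difference between stimulated groups was not detected for this gene, with 95% intervals of -0.68 to 0.37 for NKT-like minus cultured CD4+ and -0.76 to 0.44 for NKT-like minus activated CD8+ cells. Probe set 1432543_a_at gave larger differences of -2.20 in NKT-like (q = 0.0032), -1.78 in cultured CD4+ (q = 0.013) and -2.21 in activated CD8+ cells (q = 0.019), and the third, 1456030_at, read 6.14 to 6.60 in every sample, inside the other-tissue range. The NKT-like call at 1436316_at was lost without NKT-like replicate 1 (q = 0.011), naive replicate 1 (q = 0.034) or naive replicate 2 (q = 0.068), and after median centring (q = 0.015). Benjamini-Hochberg adjustment also lost it.

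Klf6, a widely expressed early-response activator, was raised in NKT-like cells relative to naive ones. Probe set 1427742_a_at read 9.72, 8.67, 10.36, 9.68 and 9.21 in NKT-like, 8.80, 8.94 and 8.98 in cultured CD4+, 9.02 and 8.79 in activated CD8+ and 8.47 and 7.92 in naive CD8+ samples. The naive pair was lowest, with replicate 2 within the other-tissue range, and NKT-like cultures spread from the lowest to the highest stimulated value. The rise was 2.51-fold (1.33 ± 0.34, q = 0.0075), against 0.71 (q = 0.081) in cultured CD4+ and 0.71 (q = 0.21) in activated CD8+ cells, which were not called and were each 0.44 without naive replicate 2. A second probe set, 1418280_at, was called higher in NKT-like (1.47, q = 0.0017) and in cultured CD4+ cells (1.42, q = 0.0032), with all samples inside the other-tissue range, and the other 3 in neither. All 5 Klf6 probe sets had positive differences in all 3 comparisons. At 1433508_at, the only Klf6 probe set above the other-tissue range in every sample, NKT-like cells had the smallest rise, 0.68 (q = 0.06). It was 1.16 (q = 0.015) in cultured CD4+ and 1.07 (q = 0.068) in activated CD8+ cells. NKT-like minus cultured CD4+ was 0.62 (q = 0.33) at the representative and -0.48 (q = 0.43) at 1433508_at, so the order of these groups depended on the probe set. The representative probe set passed with 6 of the 12 arrays left out in turn, and its call was lost without NKT-like replicate 1 or 4, cultured CD4+ replicate 2 or 3, or either naive replicate (q up to 0.14). This call was also lost under quantile normalisation and under Benjamini-Hochberg adjustment.

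Klf9, a repressor induced by glucocorticoid and thyroid hormones that works through Sin3A, was modestly higher in NKT-like cells. Probe set 1428289_at read 8.84, 9.14, 8.93, 9.27 and 8.78 in NKT-like, 8.74, 8.73 and 9.14 in cultured CD4+, 9.28 and 8.81 in activated CD8+ and 8.25 and 8.44 in naive CD8+ samples. Every stimulated sample lay above the naive pair, and the stimulated groups overlapped. The rise was 1.56-fold in NKT-like cells (0.65 ± 0.18, q = 0.0096), while the differences of 0.52 (q = 0.031) in cultured CD4+ and 0.70 (q = 0.036) in activated CD8+ cells missed the threshold. One other of its 7 probe sets, 1422264_s_at, was called in NKT-like cells (1.1, q = 0.005), with 4.87 to 5.81 in NKT-like and 4.16 to 4.28 in naive samples, all inside the other-tissue range. The call at 1428289_at passed with 3 of the 12 arrays left out in turn and was lost without any one NKT-like replicate, cultured CD4+ replicate 1 or 2 or either naive replicate (q up to 0.078), and under quantile normalisation (0.33, q = 0.054). Benjamini-Hochberg adjustment also lost it.

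Klf10, first described as an early gene induced by TGF-beta, had higher means in both kinds of culture without passing the test. Its single probe set 1416029_at read 6.67, 7.69, 7.35, 8.22 and 7.12 in NKT-like, 7.29, 7.45 and 7.62 in cultured CD4+, 6.97 and 5.77 in activated CD8+ and 5.93 and 6.75 in naive CD8+ samples. The 3 cultured CD4+ samples lay above all activated and naive samples, while NKT-like values reached down to a naive value. The differences from naive cells were 1.07 (q = 0.032) in NKT-like and 1.11 (q = 0.039) in cultured CD4+ cells. Without naive replicate 1 they were 0.67 (q = 0.22) in NKT-like and 0.71 (q = 0.2) in cultured CD4+ cells. Only NKT-like replicate 4 exceeded the other-tissue range.

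**Figure D3:**
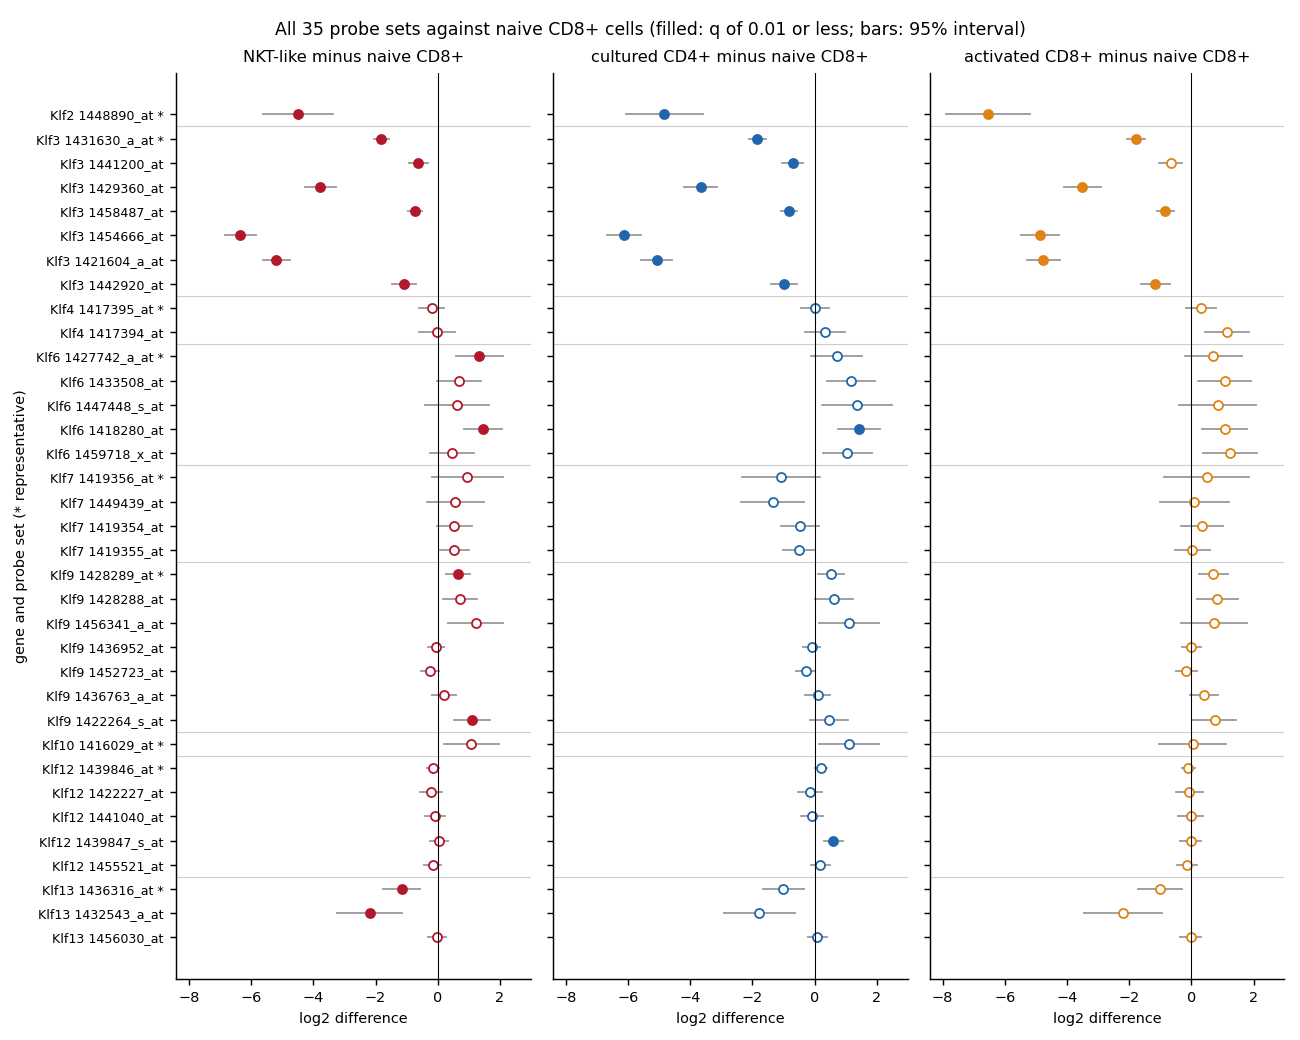
Log2 difference from naive CD8+ cells (horizontal axis) of all 35 probe sets (rows, grouped by gene, with the representative starred) in NKT-like, cultured CD4+ and activated CD8+ cells. Points are fitted differences, bars 95% intervals and filled points those at a q of 0.01 or less. The 7 Klf3 probe sets lie left of zero in each panel, from -0.63 to -6.36 in NKT-like cells.

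The probe sets of a gene did not always give the same call. Of the 35, 4 were higher and 10 lower in NKT-like, 2 higher and 8 lower in cultured CD4+ and 0 higher and 7 lower in activated CD8+ cells. Most of the lower ones were probe sets of Klf3, and probe sets of 1 gene are not independent. The share of all probe sets called higher was 7.83% for NKT-like, 8.18% for cultured CD4+ and 3.1% for activated CD8+ cells. An unadjusted p under 0.05 by limma was given against naive cells by 18 member probe sets in NKT-like cells, against 37.2% of all probe sets, by 21 in the CD4+ cultures, against 36.2%, and by 17 in activated CD8+ cells, against 24%. For Klf3 the probe sets that were called had 1 direction, and for Klf6, Klf9 and Klf13 only some were called. In each of these 4 genes some probe sets lay within the other-tissue range in every sample, 2 for Klf3, 2 for Klf6, 5 for Klf9 and 1 for Klf13.

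Klf4 and Klf12 gave signals no higher than genes of other tissues in every sample, for all 2 and 5 of their probe sets. Klf4, a factor that limits the division of CD8+ T cells, read 5.30, 5.47, 5.68, 5.55 and 5.42 in NKT-like, 6.10, 5.49 and 5.48 in cultured CD4+, 5.81 and 6.19 in activated CD8+ and 5.55 and 5.80 in naive CD8+ samples at 1417395_at. The NKT-like cultures lay below the activated pair (-0.52, q = 0.081) without passing, a difference of -0.32 without activated CD8+ replicate 2. At 1417394_at the activated pair, at 6.65 and 5.80, was the highest apart from an overlap with cultured CD4+ replicate 1 at 5.88, and NKT-like minus activated CD8+ was -1.17 (q = 0.016). Klf12, a CtBP-recruiting repressor of the AP-2 alpha gene, read 6.42, 6.44, 6.42, 6.54 and 6.51 in NKT-like and 6.75, 6.86 and 6.83 in cultured CD4+ samples at 1439846_at. These groups did not overlap, with a difference of -0.35 ± 0.07 (q = 0.017) that missed the threshold. A dimmer probe set, 1439847_s_at, was called higher in cultured CD4+ samples, at 4.37, 4.80 and 4.82, against 4.07 and 4.04 in naive samples (0.61, q = 0.0047).

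In the direct comparison with cultured CD4+ cells, which shared the culture, Klf7 had the largest difference of the members. It is a factor best known from the development of sensory neurons. Probe set 1419356_at read 9.37, 9.95, 9.90, 10.39 and 9.35 in NKT-like, 6.35, 8.24 and 8.69 in cultured CD4+, 9.71 and 8.99 in activated CD8+ and 8.67 and 9.04 in naive CD8+ samples. All NKT-like cultures lay above all cultured CD4+ samples, and cultured CD4+ replicate 1 was the lowest of the 12 and the only one within the other-tissue range. The difference was 2.03 ± 0.45 at q = 0.024, which missed the threshold, and it was 1.33 (q = 0.026) without cultured CD4+ replicate 1.

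The 4 Klf7 probe sets gave differences of 2.03, 1.91 (q = 0.011), 1.02 (q = 0.022) and 1.04 between NKT-like and cultured CD4+ samples. These groups overlapped at none of the 4, but the share of all probe sets that separate them was not counted. The difference of 1.04, at 1419355_at, was called (SE 0.19, q = 0.0075). It was the single member probe set called in that comparison, of 35, against 2.18% of all probe sets. It read 7.87, 7.88, 8.02, 8.49 and 8.22 in NKT-like, 7.07, 7.08 and 7.03 in cultured CD4+, 8.03 and 7.18 in activated CD8+ and 7.60 and 7.55 in naive CD8+ samples. Here the 3 cultured CD4+ samples lay close together, within the other-tissue range, and replicate 1 did not stand apart, but the call was lost without any one array of the NKT-like, cultured CD4+ or naive groups. Cultured CD4+ minus naive CD8+ was -1.09 at the representative probe set (q = 0.078), or -0.38 (q = 0.15) without cultured CD4+ replicate 1, and NKT-like minus naive CD8+ was 0.94 (q = 0.086), so neither side of the contrast passed against naive cells. Cultured CD4+ samples also lay below the activated pair (-1.59, q = 0.14), a difference of -0.89 (q = 0.14) without cultured CD4+ replicate 1.

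**Figure D4:**
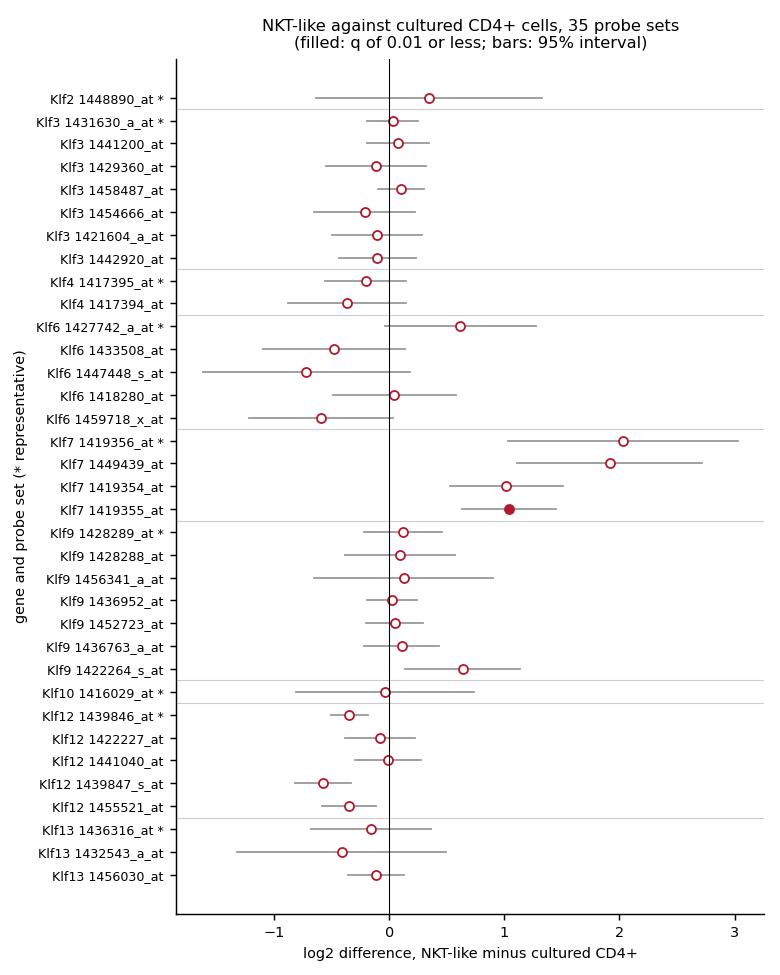
Log2 difference of NKT-like minus cultured CD4+ cells (horizontal axis) for all 35 probe sets, with 95% intervals as bars and the probe set called at a q of 0.01 or less filled. The 4 Klf7 probe sets lie farthest to the right, from 1.02 to 2.03.

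Between stimulated groups, calls were few among the members, as they were among all genes and probe sets. In NKT-like against cultured CD4+ cells 0 of 9 genes were called, against 3.01% of all genes, and 2 of 9 had an unadjusted p under 0.05 by limma, Klf7 and Klf12, against 17.8% of all genes. Of the 35 probe sets 1 was called, against 2.18% of all probe sets. In NKT-like against activated CD8+ cells 0 genes were called, against 4.27%, with 3 at an unadjusted p under 0.05, against 24%, and 1 probe set, Klf3 1454666_at (-1.49 ± 0.23, q = 0.0021), against 3.17%. In cultured CD4+ against activated CD8+ cells 0 genes were called, against 1.8%, with 4 at an unadjusted p under 0.05, against 17.3%. Of the probe sets 0 were called there, against 1.46%, with 11 at an unadjusted p under 0.05, against 15.4%. Each comparison shares a group with the others.

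The genes described as controlled by KLF2 in T cells moved in different directions. Of the 6 analysed here, 1 was higher and 3 lower in NKT-like, 1 higher and 2 lower in cultured CD4+ and 1 higher and 2 lower in activated CD8+ cells. Over all genes, 11% were higher and 6.61% lower in NKT-like and 11.6% and 5.58% in cultured CD4+ cells. In activated CD8+ cells these shares were 4.35% and 2.68%. The median difference of the 6 genes was -1.33 for NKT-like cells, -0.57 for the CD4+ cultures and 0.06 for activated CD8+ cells. S1pr1, the receptor with which T cells leave lymphoid organs, read 6.80, 6.47, 6.66, 6.63 and 6.80 in NKT-like, 8.41, 7.05 and 6.99 in cultured CD4+, 7.04 and 6.99 in activated CD8+ and 10.73 and 9.30 in naive CD8+ samples. It was lower in all 3 stimulated groups, with differences of -3.34 in NKT-like (q = 9.9e-05), -2.53 in cultured CD4+ (q = 0.00095) and -3.00 in activated CD8+ cells (q = 0.0019). Itgb7, the beta 7 integrin chain for homing to the gut, differed from naive cells by -1.63 in NKT-like (q = 0.0092), -2.68 in cultured CD4+ (q = 0.0012) and -3.43 in activated CD8+ cells (q = 0.0017). Cdkn1a, the p21 inhibitor of cell division that KLF2 is known to induce, was higher by 4.68 in NKT-like (q = 1.4e-07), 4.27 in cultured CD4+ (q = 6.6e-07) and 2.24 in activated CD8+ cells (q = 0.00041).

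Ccr7, the receptor for entry into lymph nodes, separated the stimulated groups. It read 6.44, 6.44, 6.18, 6.43 and 6.55 in NKT-like, 8.64, 8.29 and 8.36 in cultured CD4+, 10.71 and 9.90 in activated CD8+ and 10.87 and 8.70 in naive CD8+ samples. NKT-like cultures lay within the other-tissue range and below every other sample. The differences were -3.38 from naive (q = 0.00016), -2.02 from cultured CD4+ (q = 0.009) and -3.90 from activated CD8+ cells (q = 0.00028). In the activated samples, where Klf2 was lowest, Ccr7 stood 0.52 above naive cells (q = 0.38), and the naive pair themselves differed widely.

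**Figure D5:**
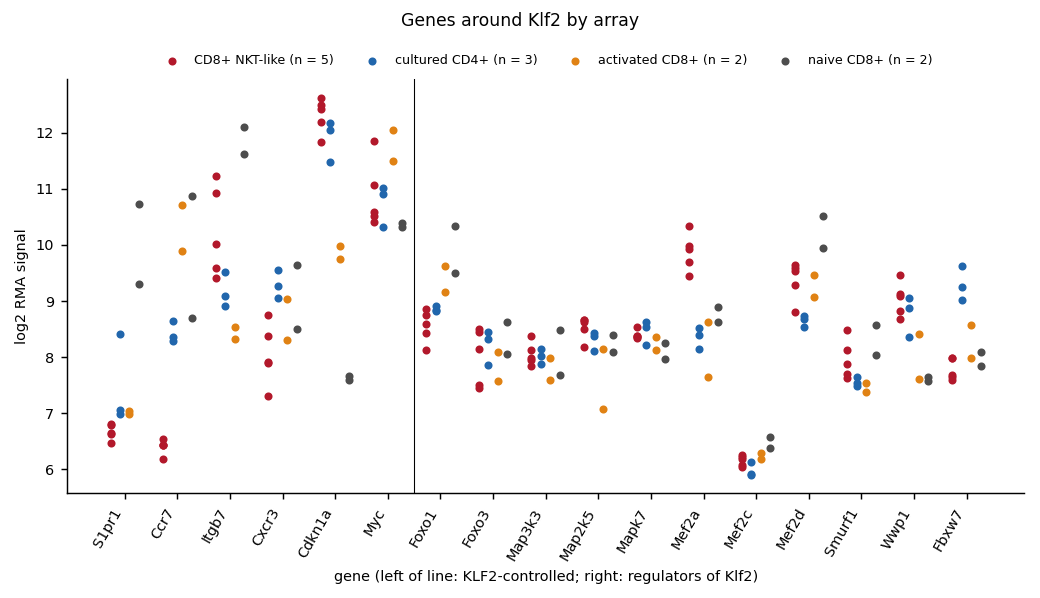
Log2 RMA signal (vertical axis) in every array of 6 genes described as controlled by KLF2 (left of the line) and 11 genes that regulate Klf2 expression or turnover (right), with NKT-like, cultured CD4+, activated CD8+ and naive CD8+ samples from left to right at each gene. Ccr7 lies between 6.18 and 6.55 in the NKT-like arrays, Cdkn1a is lowest and S1pr1 highest in the naive arrays, and Mef2a is highest in the NKT-like arrays.

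Of 11 genes that regulate Klf2 expression or turnover, 2 were higher and 2 lower in NKT-like, 2 higher and 3 lower in cultured CD4+ and 0 in activated CD8+ cells. The shares over all genes were 11% higher and 6.61% lower in NKT-like and 11.6% and 5.58% in cultured CD4+ cells. They were 4.35% and 2.68% in activated CD8+ cells. The median of the 11 genes was -0.19 in NKT-like, -0.13 for the CD4+ cultures and -0.51 for activated CD8+ cells. Foxo1, the forkhead activator of Klf2, was lower in NKT-like (-1.36, q = 0.00098) and cultured CD4+ cells (-1.06, q = 0.0057), and differed by -0.53 (q = 0.18) in activated CD8+ cells. Mef2d was lower in NKT-like (-0.86, q = 0.0084) and cultured CD4+ cells (-1.58, q = 0.00061), whereas Mef2a was higher in NKT-like cells than in naive (1.11, q = 0.0055), cultured CD4+ (1.52, q = 0.003) and activated CD8+ cells (1.74, q = 0.0022). Mef2a read 9.70, 9.98, 10.34, 9.93 and 9.44 in NKT-like, 8.15, 8.52 and 8.40 in cultured CD4+, 8.63 and 7.64 in activated CD8+ and 8.90 and 8.63 in naive CD8+ samples. The NKT-like cultures overlapped no other group. Wwp1, a ubiquitin ligase that marks KLF2 for degradation, was higher in NKT-like (1.42, q = 0.0013) and cultured CD4+ cells (1.15, q = 0.0061). Fbxw7, another ligase subunit with that role, exceeded its naive level in cultured CD4+ cells (1.33, q = 0.00077), and NKT-like minus cultured CD4+ was -1.51 (q = 0.00043).

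Of 17 further genes of the Klf and Sp family, 14 were measured, 0 were higher than in naive cells in any group, and NKT-like cells had 2 lower, cultured CD4+ cells 3 and activated CD8+ cells 1. Among all genes, NKT-like cells had 11% higher and 6.61% lower, and cultured CD4+ cells 11.6% and 5.58%. Activated CD8+ cells had 4.35% and 2.68%. Klf1, the activator of globin genes in red cell precursors, differed by -4.23 in NKT-like (q = 1.8e-07), -4.30 in cultured CD4+ (q = 4.4e-07) and -4.10 in activated CD8+ cells (q = 3.7e-06), and every stimulated sample lay between 6.72 and 7.05, within the other-tissue range. The summed signal of the red cell markers given above was also highest in the naive samples, where 3 of the 7 markers had means above that range. The part of red cells in the Klf1 difference was not tested. Klf11, a close relative of Klf10, was lower in NKT-like (-0.75, q = 0.0028) and cultured CD4+ cells (-0.63, q = 0.0099), and Sp4 was lower in cultured CD4+ cells (-1.5, q = 0.0072). The median of these genes was -0.23 in NKT-like, -0.07 for the CD4+ cultures and -0.18 for activated CD8+ cells.

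Of 9 genes for cofactors of Kruppel-like proteins, NKT-like cells had 1 higher, cultured CD4+ cells 3 and activated CD8+ cells 0, and 0 were lower in these. The median was 0.17 in NKT-like, 0.27 for the CD4+ cultures and -0.23 for activated CD8+ cells. Sin3b, a Sin3 scaffold, was higher in NKT-like (1.73, q = 7.1e-05) and cultured CD4+ cells (1.92, q = 7.2e-05). The deacetylase genes Hdac1 (1.16, q = 0.00069) and Hdac2 (1.52, q = 0.00028) were higher in cultured CD4+ cells, and Hdac2 in NKT-like cells lay below that of the CD4+ cultures (-1.11, q = 0.0028). Ctbp2, one of the CtBP co-repressors that Klf3 and Klf12 recruit, was higher in NKT-like than in activated CD8+ cells (1.76, q = 0.0071).

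Of 9 genes of the TGF-beta pathway, in which Klf10 acts, 0 were higher, and NKT-like cells had 3 lower, cultured CD4+ cells 2 and activated CD8+ cells 2. The median was -0.47 in NKT-like, -0.18 for the CD4+ cultures and -0.89 for activated CD8+ cells. Smad7, the inhibitory Smad that KLF10 is known to repress, was lower in NKT-like (-1.45, q = 0.00075), cultured CD4+ (-2.07, q = 0.00016) and activated CD8+ cells (-1.96, q = 0.0013). Tgfbr2, a receptor chain, was lower in cultured CD4+ (-2.24, q = 5.6e-05) and activated CD8+ cells (-2.25, q = 0.00035) and NKT-like cells exceeded cultured CD4+ (1.53, q = 0.00077) and activated CD8+ cells (1.54, q = 0.0014). The signal carrier Smad3 was lower in NKT-like cells than in naive (-1.16, q = 0.0025) and cultured CD4+ cells (-1.51, q = 0.0015), and Smad4, its partner, was also lower in NKT-like than naive CD8+ cells (-0.99, q = 0.0025). Ski was higher in cultured CD4+ than in activated CD8+ cells (1.80, q = 0.0015), and NKT-like cells lay below cultured CD4+ cells (-1.14, q = 0.0048).

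For members whose group means spanned at least 1 log2 unit, the genes most like them were found from the mean absolute difference of centred log2 values over the 12 arrays among 18192 genes. For Klf2 they were Igha (0.70), an antibody heavy chain gene, and the interferon-related genes Ifi213 (0.71) and Ifit1bl1 (0.77). For Klf3 they were Xkrx (0.10), Speer8-ps1 (0.10) and Tal1 (0.12), the last a factor of red cell precursors. For Klf13 they were AW549877 (0.15), Smad4 (0.15) and Dock11 (0.15). Klf6 was most like Ino80e (0.18), Med15 (0.18) and Ubash3a (0.19), Klf7 most like Bid (0.39), Camk4 (0.39) and Tanc1 (0.40), and Klf10 most like Hint3 (0.18), Atp5e (0.19) and Cops9 (0.21). Klf4, Klf9 and Klf12 spanned less than 1.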

How the data were processed

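Total RNA from 12 samples of spleen T cells was hybridised to Affymetrix mouse GeneChips, 1 array per sample. The deposited values are log2 signals that the authors made with RMA, which corrects background, normalises by quantiles and summarises probe sets. No source used here gives the RMA version or says whether the 12 arrays were normalised together. RMA gives no detection call, so genes of other tissues served as the level of unexpressed genes. The number of arrays limits the precision.

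Groups were taken from the sample titles. The table held 45101 probe sets, and without the 64 Affymetrix controls 45037 were tested. Of these, 34945 had 1 gene symbol in the platform annotation, 932 several and 9160 none, and only those with 1 symbol name a gene. The probe set with the highest signal averaged over the 12 arrays stood for a gene, without those marked as binding several sequences unless a gene had no other. Names followed one rule, which took every member, the 3 genes most like each member whose group means span at least 1 log2 unit, and up to 6 genes per list, the passing ones with the largest change and any that go the other way. The members and lists were chosen with earlier results of these data known.

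With limma 3.58.1 in R 4.3.3, lmFit fitted the 4 groups to all 12 arrays and eBayes moderated the variances (8 residual and 3.03 prior degrees of freedom). The study's methods name limma, pairs of groups and Storey q-values, but not this joint fit. Storey q-values were computed for each of 6 comparisons over all tested probe sets, and a difference was called at a q of 0.01 or less at any fold size. Folds were computed from log2 differences, SE is that of the fit, and intervals cover 95%. The scripts were tested on simulated data with known changes. Promoter letters came from RefSeq, read with Python 3.11.15. Alternatives were quantile normalisation or median centring of the deposited values, a filter on low values, fits of 1 pair of groups at a time, Benjamini-Hochberg adjustment, a trended robust prior, averaging a gene's probe sets, the replicate number as a block and each array left out in turn.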

Additional observations from a re-analysis of the deposited data

Results flagged for a closer look

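In the NKT-like group, the only one of 4 or more samples, 35 member probe sets were examined for a single value far from the others. NKT-like replicate 4 stood apart at Klf3 probe set 1441200_at, with 8.22 against 8.36 in the nearest culture, a gap of 0.845 of the group's range, above the limit of 0.71 for 5 samples. Chance gives such a value in about 1 of 20 groups, and no other probe set passed the limit. The same culture had the highest Klf7 and Klf10 values of its group.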

How the results depend on the processing

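The falls of Klf2 and Klf3 from naive cells kept their direction under all alternatives run and stayed at a q of 0.01 or less, except Klf3 in activated CD8+ cells with that pair of groups fitted alone (q = 0.014). At the representative probe sets of the 9 genes, no difference given in the text turned its direction under an alternative. No count of member calls did so either, with 1 exception. The 1 probe set called in NKT-like against cultured CD4+ cells was a lower one without cultured CD4+ replicate 1. Single differences at other probe sets and at the genes of the lists were not followed under the alternatives. The cause of the changes below was not tested. Of 5 genes called in NKT-like against naive cells, quantile normalisation gave 3 (0 higher, 3 lower), Benjamini-Hochberg adjustment 2, the replicate block 3 and single arrays left out 2 to 5, with 2 without naive replicate 1, naive replicate 2 or NKT-like replicate 1. The 14 probe sets of that comparison became 6 with the block and 6 to 15 with an array left out, with 8 and 6 without naive replicates 1 and 2. Each pair fitted alone gave 1 gene and 3 probe sets, in place of 2 and 7, in activated against naive CD8+ cells. With an array left out these were 2 and 5 to 9, and in cultured CD4+ against naive cells 2 to 3 genes and 7 to 13 probe sets. Averaging a gene's probe sets called 1 gene in place of 0 in NKT-like against cultured CD4+ cells (Klf7, 1.5, q = 0.0054) and 1 in place of 0 in NKT-like against activated CD8+ cells (Klf4, -0.84, q = 0.0081). The 1 probe set of NKT-like against cultured CD4+ cells became 3 by quantile normalisation, 0 by median centring, 2 by the filter, 3 by the trended robust prior, 0 with the block and 0 to 1 with an array left out. It was lost without any 1 of the 5 NKT-like arrays. The 1 probe set of NKT-like against activated CD8+ cells became 0 with that pair alone, 2 by the trended prior, 0 with the block and 1 to 2 with an array left out. In cultured CD4+ against activated CD8+ cells 0 probe sets became 1 by the filter, 2 by the trended prior and 0 to 1 with an array left out.

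Same-numbered samples of different groups were not shown to be paired, as the correlations of their deviations ran from -0.501 to 0.28 over 13 pairs and 3 exceeded 0.1. The replicate block left 4 residual degrees of freedom and cut the calls over all probe sets in NKT-like against naive cells to 1170, against 7367 without it. The filter, at a level of 6.3, kept 25 of the 35 probe sets and 8 of the 9 genes. With 2 samples in each of 2 groups, an absent call is no evidence of equal levels, and signals within the other-tissue range carry array background.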
